A study of Mus musculus with 6 samples.

Results

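The ETS transcription factors described here are 10 genes, Etv2, Fli1, Erg, Ets1, Ets2, Etv6, Elk3, Elf1, Elf2 and Gabpa, taken by symbol from a table of 14005 genes. RNA was sequenced from FLK1+ mesodermal cells of mouse embryoid bodies (EBs), which are differentiating aggregates of embryonic stem (ES) cells, at day 3.5. Libraries 1 to 3 came from wild-type (WT) J1 ES cells and another 3, numbered likewise, from Scl-/- ES cells, which carry a disrupted Scl (Tal1) gene. The labels give the strain as C57Bl/6 X Sv129 for WT 1, WT 2 and Scl-/- 1, and end it in Sv130, Sv131 and Sv132 for Scl-/- 2, WT 3 and Scl-/- 3. Each group came from 1 ES cell line, so genotype and line cannot be told apart, and the FLK1+ cells were enriched on magnetic columns. The receptor transcript Kdr (FLK1), on which the enrichment acts, stood at 832 to 868 CPM, a read count scaled to library size, in the WT libraries and 724 to 810 CPM in the Scl-/- libraries. The disrupted Tal1 gene had 182 to 306 CPM in WT and 5.68 to 9.35 CPM in Scl-/- cells. In bulk RNA, fewer cells of a type and less RNA per cell cannot be told apart.

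ETS factors share a winged-helix DNA-binding domain that recognises the core letters GGAA. Etv2 is a pioneer-like factor at the top of the blood and endothelial programme in FLK1+ mesoderm. Fli1 and Erg, close relatives of each other, and Ets1 and Ets2, another related pair, act in endothelial and blood progenitors, where Fli1 works together with SCL and GATA2. Etv6 is a repressor, Elk3 a ternary complex factor that binds with SRF, Elf1 and Elf2 belong to the ELF group, and Gabpa is the DNA-binding subunit of the ubiquitous complex GABP.

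Of the 10 genes, 4 fell in Scl-/- cells, Fli1, Erg, Ets1 and Ets2, and 1 rose, Etv2. Fli1 and Erg were about an order of magnitude lower, Ets1 and Ets2 about 3-fold lower, and Etv2 was 1.71-fold higher. The other 5 genes, Etv6, Elk3, Elf1, Elf2 and Gabpa, had log2 fold changes between -0.15 and 0.10 and did not pass the test. Values of 3 libraries are given in the order of replicates 1 to 3. A gene was called where the limma test on log2(CPM + 0.5) gave a Benjamini-Hochberg adjusted p under 0.05 over 13991 genes and the absolute log2 fold change exceeded 0.48. By that rule 1.57% of all tested genes were called lower and 0.793% higher. The median log2 fold change was -0.14 over the 10 genes and 0.0090 over all genes tested. For 5 of the 10 genes, the 5 called, the groups did not overlap, which held for 21.6% of all tested genes.

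**Figure D1:**
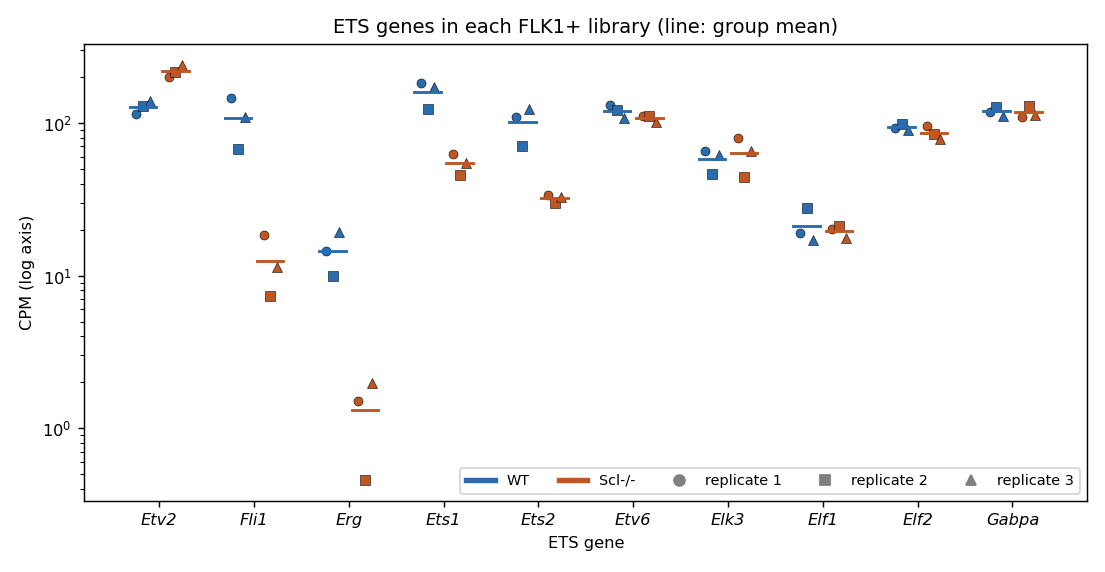
CPM of the 10 ETS genes (log axis) in each library, with WT in blue, Scl-/- in orange, a symbol for each replicate number and a line at the group mean. Fli1, Erg, Ets1 and Ets2 lie lower in all 3 Scl-/- libraries, Etv2 lies higher, and the groups of the other 5 genes overlap.

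Etv2 (ENSMUSG00000006311, chr7:31418635-31421308 of mm9, minus strand) was measured at 114, 128 and 138 CPM in WT. The Scl-/- libraries had 199, 214 and 240 CPM. Every Scl-/- library exceeded every WT library, and within each number the Scl-/- library was the higher. The means were 127 ± 11.8 CPM in WT and 217 ± 20.7 CPM in Scl-/- (SD, n = 3 each). The log2 fold change was 0.78 (SE 0.11, 95% interval 0.51 to 1.04; limma adjusted p = 0.0175). With WT replicate 1 left out the log2 fold change was 0.70 and the adjusted p 0.134, and it was 0.0741 without Scl-/- replicate 2 and 0.0573 without Scl-/- replicate 3. The genes on either side of Etv2 did not pass the test: Rbm42, 4.71 kb away, had a log2 fold change of 0.10, Haus5 of 0.09 and Cox6b1, 7.47 kb away on the other side, of -0.02. Etv2 overlaps no other protein-coding gene in the annotation.

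The 250 bases before the Etv2 start are shown because Etv2 was the 1 gene of the 10 called higher. They come from RefSeq (GRCm38.p6, chr7:30635853-30636102, minus strand, printed 5′ to 3′ along the gene), with each GGAA or its reverse complement TTCC in capitals.
Etv2: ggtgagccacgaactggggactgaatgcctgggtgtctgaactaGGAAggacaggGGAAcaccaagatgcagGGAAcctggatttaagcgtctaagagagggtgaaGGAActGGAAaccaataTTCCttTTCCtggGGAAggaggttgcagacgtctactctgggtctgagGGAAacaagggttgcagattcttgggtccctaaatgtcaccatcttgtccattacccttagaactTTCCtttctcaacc
The window held 10 matches to GGAA on both strands, against a median of 3 over 12215 windows of the same length from 9500 tested genes. As many matches were in 0.188% of those windows, and at least 1 in 92.9%. The longer form CCGGAA, which contains the core, was not in the window and was in 21.3% of all windows. The GATA letters AGATAA (5.63% of windows) and the E-box CANNTG (57.0% of windows) were not in it either. A match describes the letters of a window and is not a binding site.

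Fli1 and Erg, both of the ERG subfamily, fell the furthest of the 10. The ETS gene Fev, also of that subfamily but not among the 10, had a log2 fold change of 0.22 and was not called. Fli1 (ENSMUSG00000016087, chr9:32229793-32348974, minus strand) was at 145, 67.5 and 109 CPM in WT and at 18.4, 7.30 and 11.4 CPM in Scl-/-. The lowest WT library was more than 3 times the highest Scl-/- library. The means of 107 ± 38.8 and 12.4 ± 5.63 CPM (SD, n = 3 each) differed 8.66-fold, with a log2 fold change of -3.09 (SE 0.37, 95% interval -3.96 to -2.22; limma adjusted p = 0.00948). Erg (ENSMUSG00000040732, chr16:95580776-95808200, minus strand) was a less abundant transcript, at 14.6, 9.96 and 19.2 CPM in WT and 1.52, 0.459 and 2.00 CPM in Scl-/-. Its level differed 11.0-fold between the means, with a log2 fold change of -3.11 (SE 0.39, 95% interval -4.02 to -2.20; limma adjusted p = 0.0105). All Scl-/- values of Erg remained above the 0.0615 to 0.0784 CPM that 3 reads give, a floor for counting error only. Without WT replicate 1 the adjusted p was 0.0703 for Fli1 (log2 fold change -2.84) and 0.0876 for Erg (-3.09), and without WT replicate 3 it was 0.0508 for Erg.

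Ets1 and Ets2, the ETS-subfamily genes, fell by less. Ets1 (ENSMUSG00000032035, chr9:32443806-32565405, plus strand) had 181, 123 and 170 CPM in WT and 62.7, 45.5 and 54.3 CPM in Scl-/-. The Scl-/- libraries all lay below the WT libraries, and the means differed 2.92-fold. The log2 fold change was -1.53 (SE 0.18, 95% interval -1.95 to -1.11; limma adjusted p = 0.00917). Ets2 (ENSMUSG00000022895, chr16:95923682-95942658, plus strand) had 110, 70.1 and 123 CPM in WT and 33.4, 30.0 and 32.5 CPM in Scl-/-. Its Scl-/- values were close together, with a coefficient of variation of 5.49% against 27.3% in WT, and the means differed 3.16-fold. The log2 fold change was -1.61 (SE 0.20, 95% interval -2.08 to -1.13; limma adjusted p = 0.0106). Without WT replicate 1 the adjusted p was 0.0748 for Ets1 (log2 fold change -1.42) and 0.0894 for Ets2 (-1.53).

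Calls among the 10 genes depended most on WT replicate 1 in the limma test used above. Without it 0 of the 10 genes and 34 of 13955 genes were called in limma, although all 5 log2 fold changes kept their sign and 5 of the 10 genes had an unadjusted p under 0.05. The 4 genes that fell were lowest in replicate 2 of both genotypes, so same-numbered libraries deviated together. With the replicate number as a block, which alters the errors and not the log2 fold changes, the same 5 genes were called, beside 6.6% of all genes called lower and 6.04% higher. Between same-numbered libraries, the log2 difference ran from -3.21 to -2.94 for Fli1, from -3.45 to -2.90 for Erg and from -1.64 to -1.42 for Ets1. This difference ran from -1.91 to -1.21 for Ets2 and from 0.74 to 0.80 for Etv2. With any pair of same-numbered libraries left out, the blocked fit called these 5 genes and none of the other 5.

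The 4 genes that fell lie in 2 head-to-head pairs, each joining an ERG-subfamily gene on the minus strand to an ETS-subfamily gene on the plus strand. The annotated starts of Fli1 and Ets1 are 94.8 kb apart on chromosome 9, and those of Erg and Ets2 are 115 kb apart on chromosome 16. No tested gene lies between the starts of either pair. In both pairs the ERG-subfamily gene fell further than its neighbour. The ratio of Fli1 to Ets1 in CPM was 0.800, 0.550 and 0.640 in WT and 0.294, 0.161 and 0.210 in Scl-/-. On the log2 scale it was lower by 1.61 in Scl-/- cells, with no overlap between groups (two-sided exact permutation p = 0.1, the smallest that 3 against 3 libraries allow). The ratio of Erg to Ets2 was 0.132, 0.142 and 0.156 in WT and 0.0454, 0.0153 and 0.0615 in Scl-/-. It was lower by 2.03 on the log2 scale (two-sided exact permutation p = 0.1). By contrast the ratio of Ets1 to Ets2 ran from 1.38 to 1.75 in WT and from 1.51 to 1.87 in Scl-/- libraries, with a log2 difference of 0.083 (two-sided exact permutation p = 0.6). The ratio of Fli1 to Erg also overlapped between groups, with a log2 difference of 0.51 (two-sided exact permutation p = 0.3). In all, 6 ratios between members were computed, of which Etv2 to Fli1 was planned and the other 5 were chosen after the values were seen. Adjusted over the 6, the smallest p was 0.15.

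Of the genes around the pairs, 1 passed the test. Kcnj5, a potassium channel gene 78.0 kb beyond the 3′ end of Fli1, had 10.2, 5.96 and 9.91 CPM in WT and 3.69, 3.34 and 2.83 CPM in Scl-/-. Its log2 fold change was -1.25 (SE 0.23; limma adjusted p = 0.0418), a call lost when any library but WT replicate 2 was left out. Arhgap32, further on the same side, had a log2 fold change of 0.12. On the far side of Ets1 the nearest tested gene, Gm10698, was 970 kb away, with a log2 fold change of 0.16. Around the other pair, Dyrk1a, 664 kb beyond the 3′ end of Erg, had a log2 fold change of -0.14, and Psmg1, 259 kb beyond Ets2, of 0.03. Within 500 kb of any of the 10 genes 80 other genes were tested, with a median log2 fold change of 0.015. Kcnj5 was the 1 called, where 1.57% of all tested genes were called lower and 0.793% higher. With the replicate block 5 of the 80 were called, Kcnj5 as lower. Hpn and Sbsn, within 500 kb of Etv2, and Lect1 and Pcdh8, within 500 kb of Elf1, were called higher. Over all tested genes the blocked fit called 6.6% lower and 6.04% higher. The median log2 fold change of the chromosomes that carry the 10 genes lay between -0.0039 and 0.031.

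**Figure D2:**
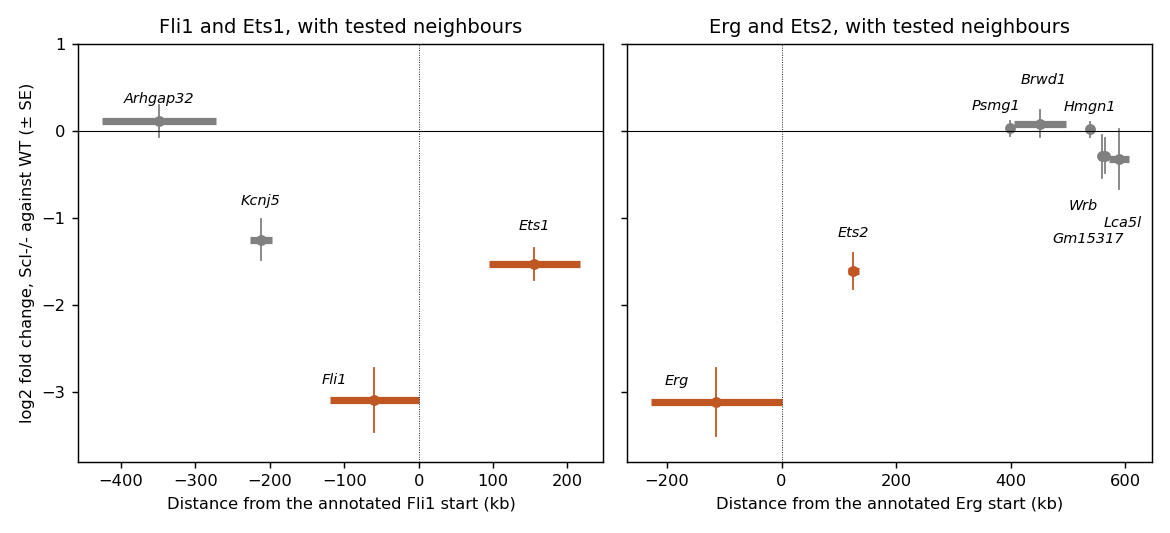
Log2 fold change (Scl-/- against WT, ± SE) of the pairs Fli1 and Ets1 (left) and Erg and Ets2 (right), in orange, and of tested genes within 500 kb, in grey, by distance in kb from the annotated start of Fli1 or Erg. Thick bars span each gene, the dotted line marks the start, and the pairs lie at -3.09 and -1.53 and at -3.11 and -1.61 while the neighbours, Kcnj5 at -1.25 apart, lie between -0.32 and 0.12.

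RefSeq promoter windows were matched by symbol for 8 of the 10 genes, 12 windows in all, and not for Fli1 and Ets1. Those of Ets2 and of Erg are shown because both genes fell. Erg had 3 windows, of which the most downstream (window 1) and the most upstream (window 3) are printed. They are Ets2 (GRCm38.p6, chr16:95702157-95702406, plus strand) and Erg (chr16:95459349-95459598 for window 1 and chr16:95586594-95586843 for window 3, minus strand), with GGAA or TTCC in capitals.
Ets2: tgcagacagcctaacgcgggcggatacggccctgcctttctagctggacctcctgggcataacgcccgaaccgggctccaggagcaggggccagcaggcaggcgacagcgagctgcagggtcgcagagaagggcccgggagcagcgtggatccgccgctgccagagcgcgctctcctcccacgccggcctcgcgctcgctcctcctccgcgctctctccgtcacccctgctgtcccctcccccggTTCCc
Erg, window 1: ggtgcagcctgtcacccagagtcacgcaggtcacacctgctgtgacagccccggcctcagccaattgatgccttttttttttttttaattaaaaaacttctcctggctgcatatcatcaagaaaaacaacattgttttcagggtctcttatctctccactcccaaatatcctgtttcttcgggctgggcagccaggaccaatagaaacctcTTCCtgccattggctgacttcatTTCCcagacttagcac
Erg, window 3: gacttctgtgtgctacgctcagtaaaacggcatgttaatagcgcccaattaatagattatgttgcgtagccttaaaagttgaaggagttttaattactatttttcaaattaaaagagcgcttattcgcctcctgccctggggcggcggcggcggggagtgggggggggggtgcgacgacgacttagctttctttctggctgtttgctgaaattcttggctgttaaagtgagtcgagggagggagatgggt
The Ets2 window, rich in G and C at 71.6%, held 1 match to GGAA, and the 3 Erg windows held 2, 4 and 0. The first Erg window also held 1 AGATAA and 2 CANNTG matches on both strands, and the third, at 48.8% G and C, held none of the letters searched. The windows of Etv2, which rose, and of Ets2 and Erg, which fell, therefore spanned 0 to 10 matches to the core. Which of the 3 Erg starts was used in these cells cannot be told from gene-level values. Among the windows of the genes that did not pass the test, Gabpa held 5 GGAA matches including 1 CCGGAA, Elf2 6 and 1 in its 2 windows, Etv6 3, Elk3 2 and Elf1 2 and 0.

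Etv2 and Fli1 moved in opposite directions, with log2 fold changes of 0.78 and -3.09, and their ratio within each library joins these changes. The ratio of Etv2 to Fli1 was 0.789, 1.90 and 1.26 in WT. It was 10.8, 29.3 and 21.0 in Scl-/-, with no overlap between groups. These are ratios of CPM without regard to length. On the log2 scale the ratio went from 0.31 ± 0.63 to 4.23 ± 0.73 (SD, n = 3 each), a difference of 3.93 (two-sided exact permutation p = 0.1). Neither gene overlapped between groups, so the ratio could not overlap either, and this p was fixed by the changes above. The ratio adds no test of its own. Within same-numbered libraries the difference was 3.77, 3.95 and 4.06. The ratio of Ets1 to Etv6, a fallen gene against one that did not pass the test, was 1.39, 1.01 and 1.58 in WT and 0.568, 0.408 and 0.536 in Scl-/-. It was lower by 1.38 on the log2 scale (two-sided exact permutation p = 0.1).

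Etv6, Elk3, Elf1, Elf2 and Gabpa did not pass the test, and the interval of each log2 fold change bounds its size. Etv6 (ENSMUSG00000030199, chr6:133985718-134220176) had 131, 122 and 108 CPM in WT and 110, 111 and 101 CPM in Scl-/-. Its log2 fold change of -0.15 had a 95% interval of -0.40 to 0.09 (limma adjusted p = 0.531). With the replicate block the interval was -0.297 to -0.0086 (limma adjusted p = 0.117), and Etv6 was lower in the Scl-/- library of every same-numbered pair. The blocked intervals of Elk3, Elf1, Elf2 and Gabpa spanned both signs. Elk3 (ENSMUSG00000008398, chr10:92710159-92773880) had 65.6, 46.0 and 61.4 CPM in WT and 79.0, 44.2 and 65.7 CPM in Scl-/-. Its replicates spread more than its groups, both groups being lowest in replicate 2, and the interval of -0.43 to 0.64 was the widest of the 5. Elf1 (ENSMUSG00000036461, chr14:79881001-79982283) had 18.9, 27.5 and 17 CPM in WT and 20.1, 21.2 and 17.7 CPM in Scl-/-, with an interval of -0.53 to 0.37. Elf1 was highest in replicate 2 of both groups, where the genes that fell were lowest. Elf2 (ENSMUSG00000037174, chr3:51059153-51144580) had 92.8, 98.3 and 89.8 CPM in WT and 95.8, 84.6 and 77.8 CPM in Scl-/-, with an interval of -0.37 to 0.12. Gabpa (ENSMUSG00000008976, chr16:84835170-84864024) had 117, 128 and 111 CPM in WT and 109, 130 and 112 CPM in Scl-/-, with an interval of -0.27 to 0.23. The values of Elk3, Elf1 and Gabpa are less certain than the others, since each overlaps a protein-coding gene on the opposite strand (Cdk17, Wbp4 and Atp5j) and it is not stated whether counting used strand.

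Levels between genes were compared as CPM per kb of annotated exon. Etv2 stood highest of the 21 measured ETS genes in both groups, at 85.2 ± 7.91 in WT and 146 ± 13.9 CPM per kb in Scl-/- (SD, n = 3 each). Its libraries lay above those of every other ETS gene, with 76.8 CPM per kb in the lowest WT library against 46.6 in the highest library of Fli1. Fli1 had rank 3 in WT at 34.5 ± 12.5 CPM per kb, behind the repressor Erf at 37.0, and their ranges overlapped. Etv5 came next at 26.6, Ets1 followed at 24.6 ± 4.84 and Ets2 at 21.4 ± 5.85, and their ranges overlapped with those of Elf2 (21.3), Gabpa (20.8) and Etv6 (20.1). Elk3 stood at 12.7, Elf1 at 4.89 and Erg at 4.18 CPM per kb in WT. In Scl-/- cells the order of the fallen genes dropped, with Ets1 at rank 10 at 8.43, Ets2 at rank 11 at 6.79, Fli1 at rank 15 at 3.98 and Erg at rank 20 at 0.380 CPM per kb. Gabpa (20.6), Elf2 (19.6) and Etv6 (18) then stood above all 4, with no overlap of their ranges with any of them.

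The sum over the 21 ETS genes overlapped between groups, at 351 to 367 CPM per kb in WT and 353 to 386 in Scl-/- libraries. Etv2 took 23.6 ± 2.19% of it in WT and 39.0 ± 2.32% in Scl-/- libraries. The share of Fli1 went from 9.53 ± 3.33% to 1.08 ± 0.546%, that of Ets1 from 6.81 ± 1.22% to 2.27 ± 0.462%, that of Ets2 from 5.93 ± 1.51% to 1.82 ± 0.175% and that of Erg from 1.16 ± 0.345% to 0.102 ± 0.0599% (SD, n = 3 each). The shares describe the same libraries as the fold changes above and add no test.

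**Figure D3:**
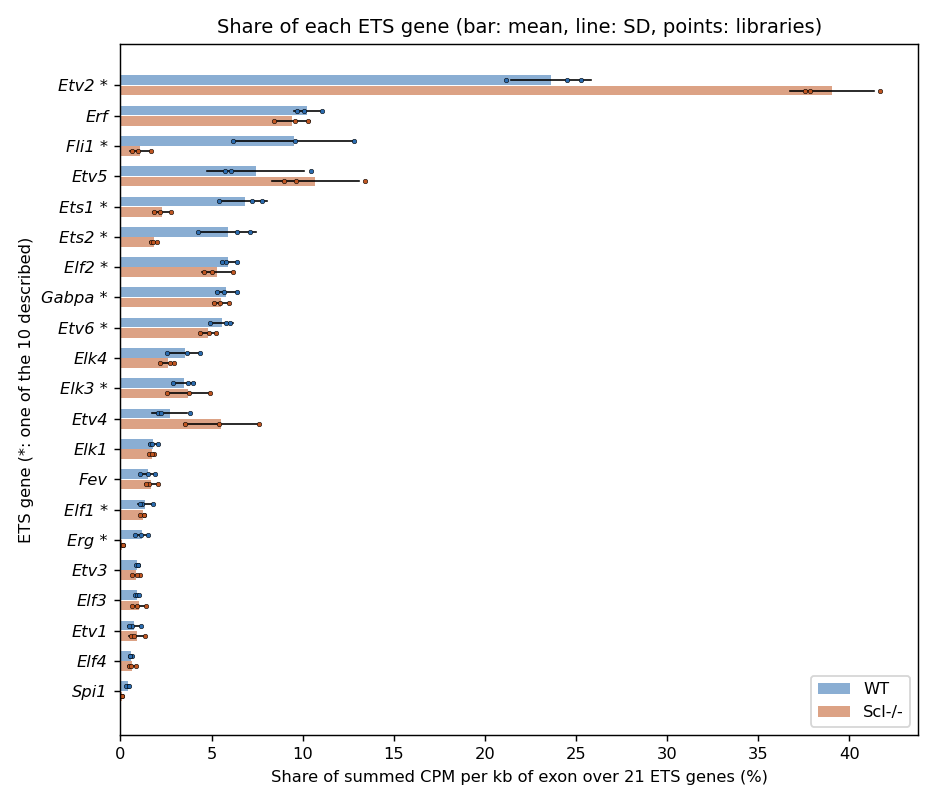
Share of each of the 21 measured ETS genes in their summed CPM per kb of exon (percent), with bars at the mean of 3 libraries, lines for the SD and points for libraries, WT in blue and Scl-/- in orange. Etv2 goes from 23.6% to 39.0%, and Fli1 from 9.53% to 1.08%.

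Of 16 other ETS family genes listed beside the 10, 11 were in the table, and Elf5, Ehf, Spib, Spic and Spdef were not analysed here. Spi1, which encodes the myeloid factor PU.1, was the 1 called, at 3.81, 2.90 and 4.83 CPM in WT and 0.902, 0.435 and 0.884 CPM in Scl-/-. Its log2 fold change was -1.81 (SE 0.26; limma adjusted p = 0.0164), with an adjusted p of 0.131 without WT replicate 1, 0.0543 without Scl-/- replicate 2 and 0.0710 without WT replicate 3. Etv4 and Etv5, PEA3-subfamily genes that respond to FGF signalling, were called higher only with the replicate block. Etv4 had 23.4, 41.7 and 25.3 CPM in WT and 38.7, 90.0 and 64.9 CPM in Scl-/- (log2 fold change 1.05; adjusted p = 0.162 without and 7.8e-04 with the block). It lies on chromosome 11, where the median log2 fold change was 0.31, and with the chromosome medians removed its log2 fold change was 0.75. Etv5 had 90.2, 151 and 86.2 CPM in WT and 130, 210 and 153 CPM in Scl-/- (log2 fold change 0.61; adjusted p = 0.269 without and 0.00165 with the block). In contrast to Etv2, the ranges of Etv4 and of Etv5 overlapped between groups, and each was higher in the Scl-/- library of every pair. The third PEA3 gene, Etv1, had a log2 fold change of 0.28, and the repressors Erf and Etv3 of -0.07 and -0.06 (adjusted p = 0.831 and 0.939). Elk1 (-0.01), Elk4 (-0.36), Elf3 (0.09), Elf4 (0.17) and Fev (0.22) did not pass either, and Elk4, Elf3 and Fev lie on chromosome 1, whose median was -0.29.

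**Figure D4:**
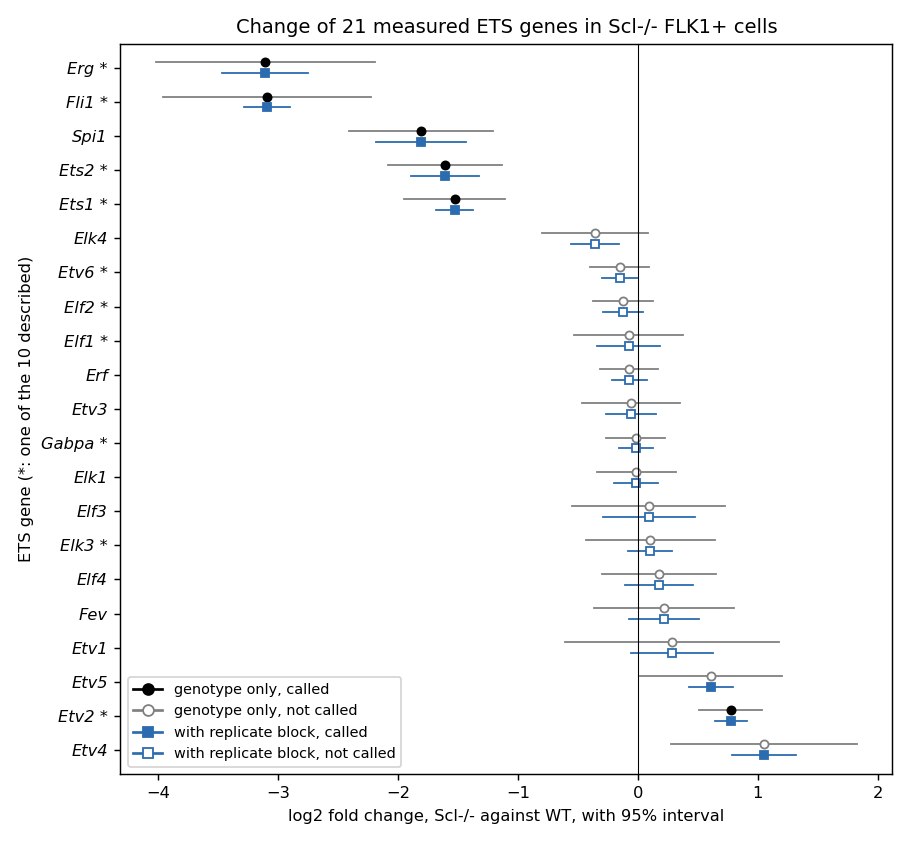
Log2 fold change (Scl-/- against WT) with its 95% interval for the 21 measured ETS genes, from the genotype-only fit (circles) and the fit with the replicate block (squares), filled where called. The 4 fallen genes and Spi1 stand at -1.53 or below and Etv2 at 0.78 in both fits, and Etv4 and Etv5 are filled only with the block.

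ETS factors act with partners, and none of the 12 tested here was called in limma with or without the block. At an unadjusted p under 0.05 there were 0 without and 2 with the block. The subunits that pair with Gabpa, Gabpb1 and Gabpb2, had log2 fold changes of -0.17 and -0.05, and Srf, the partner of Elk3 and its relatives, of -0.02. Foxc1 and Foxc2, forkhead partners of Etv2, had 0.72 and -0.23 with wide errors (SE 0.63 and 0.26), Foxc1 being low at 0.826 to 6.89 CPM. The runt partner Cbfb had a log2 fold change of -0.08. The acetyltransferases Crebbp (-0.22), Ep300 (-0.06) and Kat5 (0.03) and the corepressor genes Ncor1 (0.10), Hdac3 (-0.03) and Sin3a (0.00) completed the list.

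Of 30 endothelial and blood genes with known ETS regulation, 29 were in the table, with a median log2 fold change of -1.23. Of these 10 fell and 0 rose in limma, where 1.57% of all tested genes fell, and 20 had an unadjusted p under 0.05. They were the disrupted gene Tal1 itself, the endothelial receptors Tie1 (-3.64) and Flt1 (-0.82), the cadherin Cdh5 (-3.13), Nos3 (-3.23) and the progenitor marker Cd34 (-1.91). The transcription factors Lyl1 (-2.69), Runx1 (-2.52), Gata2 (-2.23) and Hhex (-1.64) were the other 4. Cdh5, for example, had 111, 57.2 and 146 CPM in WT and 12.7, 4.38 and 21.3 CPM in Scl-/-, lowest in replicate 2 of both groups as Fli1 was. Runx1 had 109, 76.0 and 93.0 CPM in WT and 26.1, 13.8 and 10.5 CPM in Scl-/- libraries, with no overlap. Without WT replicate 1 only Tal1 was called, and without WT replicate 3 the count was 4. With the replicate block 22 fell and 1 rose, against 6.6% and 6.04% of all genes. Added by the block were Sox7 (-2.37), Sox17 (-2.10), Tek (-1.95), Egfl7 (-1.72), Cldn5 (-1.35), Pecam1 (-1.23), Icam2 (-1.08), Esam (-1.07), Rasip1 (-0.80), Sox18 (-0.56), Mmrn2 (-0.51) and Lmo2 (-0.50) as lower, and Robo4 (0.55) as higher. Called in neither fit were Kdr, Eng, She, Vwf, Notch4 and Dll4, with log2 fold changes of -0.15, 0.47, -0.32, -0.26, -0.18 and 0.24. With the block, Kdr did not pass on p (limma adjusted p = 0.125), and neither did Vwf, Notch4 and Dll4. Eng did (limma adjusted p = 0.00207 with the block), and only the limit on the fold change kept it from being called higher. That limit likewise kept She (limma adjusted p = 0.0430 with the block) from being called lower. Eng was higher in the Scl-/- library of every same-numbered pair, although its ranges overlapped between groups.

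**Figure D5:**
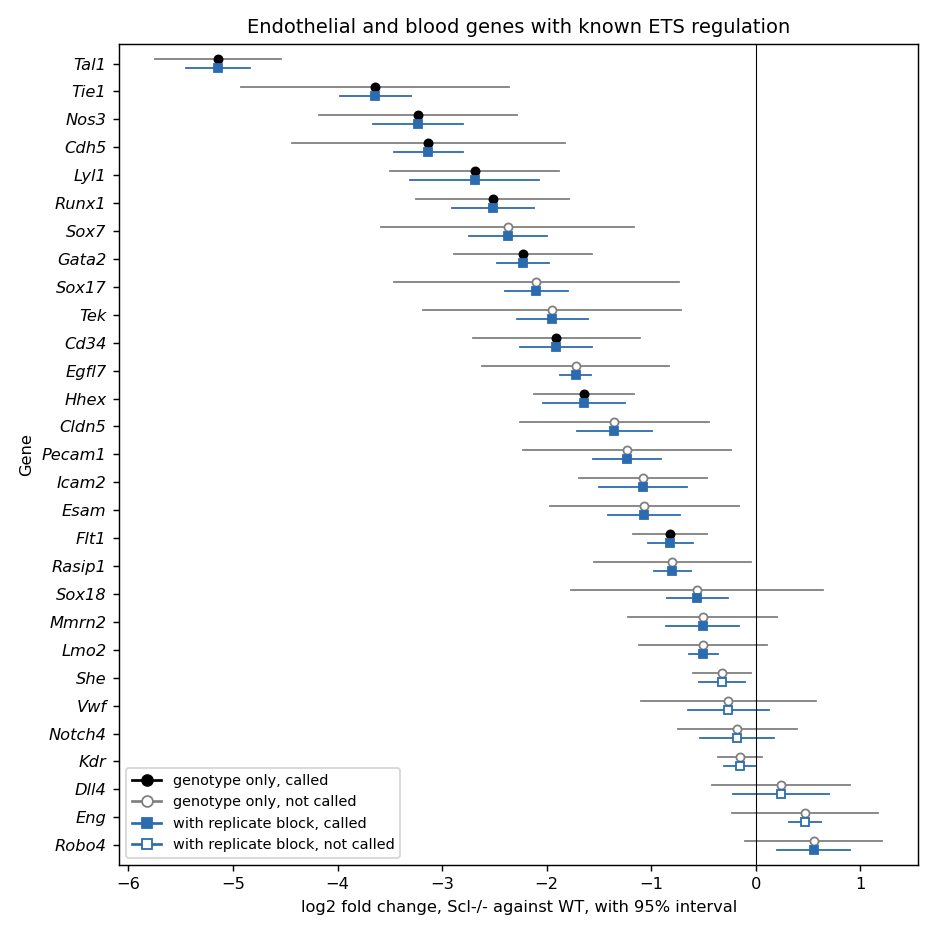
Log2 fold change (Scl-/- against WT) with its 95% interval for 29 endothelial and blood genes with known ETS regulation, drawn as circles for the genotype-only fit and squares for the fit with the replicate block, filled where called. The genes run from Tal1 at -5.14 to Robo4 at 0.55, with 10 filled circles, all below 0.

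Markers of endothelial and primitive blood cells, which FLK1+ mesoderm gives rise to, are given beside the fall of Fli1, Erg, Ets1 and Ets2. The summed level of the endothelial markers, of which 4 of 5 were in the table, was 99.0 to 260 CPM in WT and 12.9 to 43.7 CPM in Scl-/- libraries. All 4 are also among the 29 regulated genes above, and 2 of them, Tie1 and Cdh5, were called, while Pecam1 and Esam did not pass without the block (adjusted p = 0.192 and 0.211). The 3 primitive blood markers in the table, of 5 listed, summed to 16.2 to 43.1 CPM in WT and 2.44 to 3.06 CPM in Scl-/- libraries, all 3 called, and Hbb-bh1 was at 0 in the Scl-/- libraries. The 6 markers of early FLK1+ mesoderm summed to 1483 to 1876 CPM in WT and 1825 to 2646 CPM in Scl-/- libraries, with Mixl1 called higher (1.04) and, with the block, 5 of the 6, as Etv2 was. Pluripotent cell markers (5 of 5) ranged from 88.5 to 153 CPM in WT and 88.3 to 228 CPM in Scl-/-, endoderm markers (2 of 5) from 8.34 to 22.4 and 3.12 to 8.44 CPM, and neuroectoderm markers (2 of 4) from 17.7 to 42.3 and 20.0 to 61.6 CPM. The endoderm sum rests mainly on Sox17, also one of the 29 regulated genes (log2 fold change -2.10), while Cer1 had a log2 fold change of 0.85, and neither was called without the block. The part of cell composition in the change of the ETS genes was not tested.

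The genes whose log2 levels followed Fli1 most closely over the 6 libraries were ranked by Pearson correlation among the 13953 genes that averaged 1 CPM or more. They were Csgalnact1 (r = 0.999), Edil3 (0.998), Fam65b (0.997), Ets1 (0.997) and Fam214b (0.996). The chromosomal neighbour Ets1 thus had rank 4, while Erg had rank 125 (0.973) and Ets2 rank 134 (0.971). For Etv2 the 5 closest rows were 2 rows of B230217C12Rik (0.997 and 0.996), Nek8 (0.993), Zfp286 (0.993) and Sdf2 (0.993), all on chromosome 11, where the median log2 fold change over 1211 genes was 0.31. The libraries form 2 groups, and these correlations, given without a test, hold the difference between genotypes as well as the spread within them.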

How the data were processed

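RNA was sequenced from FLK1+ cells of day 3.5 EBs in 6 libraries, 3 WT and 3 Scl-/-. Per the paper's methods and the labels' processing notes, the authors aligned reads to mm9 with TopHat2 2.0.8b, handled alignments with SAMtools 0.1.19, removed duplicate read pairs and normalised by TMM in edgeR. The deposited table holds CPM values, after that scaling, of 14005 genes. The counting tool, gene annotation and strandedness are not given in the sources used here. Removing duplicates can hold down the values of abundant genes. Each CPM value is an integer multiple of a step per library (tolerance 0.05 of a read), which put the reads on listed genes at 38623641 to 47621120 per library. Low values were too few for the criterion on recovered reads, so no count model was run.

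The test ran on log2(CPM + 0.5), a pseudocount that understates changes in low genes. A gene had to reach 0.5 CPM in 3 or more libraries (13991 did, including all 10 ETS genes, and 14 did not). limma 3.58.1 (lmFit, eBayes with an intensity trend), run in R 4.3.3, compared the groups with genotype as the only term and Benjamini-Hochberg adjustment over all tested genes. The script was tested on simulated data. Groups and replicate numbers came from the labels. The series' design text describes 3 independent ES cell differentiations, without tying the numbers to them. Same-numbered libraries deviated together from their group means, with correlations of 0.587, 0.756 and 0.748, so the numbers were taken to pair the libraries. Correlations for other numbers ran from -0.621 to -0.0996. Deviations sum to 0 within a group, so these negative values partly follow from the positive ones and are no separate evidence. A fit blocked on that number was planned as an alternative, and it changes errors and not fold changes. P-values set the difference between genotypes against the spread between these libraries. With 1 ES cell line for each genotype, they do not cover variation between lines. Ratios within a library were compared by exact permutation tests.

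The members and the gene lists were chosen with earlier results of these data known. The genes named are the 10 members, the listed ETS family genes, listed partners and regulated genes called in either fit, called neighbours within 500 kb, the nearest tested genes beside the 2 pairs, and the 5 genes most correlated with Etv2 and with Fli1. The remaining partners and the immediate neighbours of Etv2, Arhgap32, Kdr, Eng, She, Vwf, Notch4, Dll4, Mixl1 and Hbb-bh1 were named after their values were seen. Positions and exon lengths come from the GENCODE M1 annotation of mm9, and promoter windows from RefSeq (GRCm38.p6). Alternatives were pseudocounts of 0.1 and 1 CPM, no filter or a mean of 2 CPM or more, the replicate block, omission of each library, rescaling by median ratios, limma without the intensity trend and other limits on the fold change. Removing chromosome medians, and leaving out each pair in the blocked fit, were added after seeing the data. Other steps used Python 3.11.15, pandas 2.3.3, NumPy 2.4.6, SciPy 1.17.1 and Matplotlib 3.10.9.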

Additional observations from a re-analysis of the deposited data

How the results depend on the processing

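Over 20 alternatives for each of the 10 ETS genes, 183 of 200 values kept their direction and their side of the threshold, 9 lost the call and 8 changed sign. The losses were in Etv2, Fli1, Erg, Ets1 and Ets2 with libraries left out, and in Etv2 at a threshold of 1 on the log2 scale. The sign changes were in genes that were not called: with a library left out, the log2 fold change ran from -0.080 to 0.33 for Elk3, from -0.22 to 0.12 for Elf1 and from -0.095 to 0.035 for Gabpa, and with a pair left out of the blocked fit it was 0.068 for Elf1 (pair 2) and 0.020 for Gabpa (pair 1). Leaving out a library gave 0 to 5 called members, 0 to 1 other ETS genes, 0 partners, 1 to 11 regulated genes and 0 to 1 neighbours, and a log2 difference of the Etv2 to Fli1 ratio of 3.60 to 4.33. Leaving out a pair in the blocked fit gave 5 members, 3 to 4 other ETS genes, 0 to 1 partners, 20 to 23 regulated genes (21 without pair 3) and 3 to 6 neighbours. With the replicate block alone, 3 other ETS genes, 23 regulated genes and 5 neighbours were called, and with chromosome medians also removed 4, 23 and 5, the fourth ETS gene being Fev on chromosome 1. Over all genes the block took the calls from 330 to 1768, and leaving out WT replicate 1 took them to 34. The block changed no call among the 10 members or the 12 partners. The paired difference of the Etv2 to Fli1 ratio with the replicate block was 3.93 (two-sided exact sign-flip permutation p = 0.25, the smallest that 3 pairs allow). With Etv2 higher and Fli1 lower in the Scl-/- library of every pair, this p was fixed in advance. The cause of these differences between fits was not tested. Precision is limited by 3 libraries a group, and for Erg, Spi1 and Hbb-bh1 also by low counts in Scl-/- cells.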
